A study of Mus musculus with 2 samples.

Results

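Adrb1, Maoa and Ddc are 3 genes of catecholamine signalling and metabolism, described here across the immune cells of the mouse adrenal gland. They were chosen by name for their roles, as 1 receptor, 1 degrading enzyme and 1 synthetic enzyme, out of 32285 genes measured. Earlier results of these data were known when this choice was made. Live CD45+ cells had been sorted from the adrenal glands of C57BL/6 mice aged 7 weeks, and 1 droplet library was made from females and 1 from males. Neither the number of animals behind a library nor any treatment is given in the sources used here. With 1 library per sex there is no spread between animals, so no test was run and no p-value is given; every interval below is an exact 95% interval that covers counting error only.

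In the adrenal gland, sympathetic nerve fibres release norepinephrine, and chromaffin cells of the medulla release norepinephrine and epinephrine. They are made from tyrosine by tyrosine hydroxylase (Th), aromatic L-amino acid decarboxylase (Ddc), dopamine beta-hydroxylase (Dbh) and phenylethanolamine N-methyltransferase (Pnmt), act on cells through adrenergic receptors, and are oxidised inside cells by monoamine oxidases. Adrb1 encodes the beta-1 adrenergic receptor, which raises cyclic AMP through the stimulatory G protein alpha subunit encoded by Gnas. Maoa encodes monoamine oxidase A of the outer mitochondrial membrane, which oxidises norepinephrine and serotonin. Ddc also makes serotonin from 5-hydroxytryptophan, so its transcript alone does not define a catecholamine-producing cell. The question put to the data was whether the cells that carry the receptor transcript and the cells that carry the degrading enzyme transcript are the same.

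In the GENCODE M21 annotation of GRCm38, which is the mm10 assembly, Adrb1 (ENSMUSG00000035283) lies on the plus strand at chr19:56722199-56733113, and its longest transcript has 1 exon. Maoa (ENSMUSG00000025037) lies on the plus strand at chrX:16619698-16687818 and has 15 exons in its longest transcript. Ddc (ENSMUSG00000020182) lies on the minus strand at chr11:11814101-11898144, also with 15 exons. Adrb1 and Maoa overlap no other annotated gene. Ddc overlaps 1700042O10Rik on the opposite strand, and that gene had 0 female and 2 male UMIs in natural killer (NK) cells and 1 female and 0 male UMIs in T cells.

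After filtering, 3693 female and 2450 male cells were kept, with a median of 3491 and 2988 unique molecular identifiers (UMIs, each standing for 1 captured RNA molecule) per cell. Among all barcodes before filtering, 2 occurred in both libraries. The 3 genes and the other catecholamine genes were held out of the clustering, so no cluster was made from them. Levels are UMIs of a gene summed over the cells of a class divided by all UMIs of that class and multiplied by 1e+06 (CPM). Adrenal gland macrophages (AGMs) formed a Lyve1-high class (81 female and 151 male cells, led by Folr2, Lyve1 and Fcna), an Aldh1a2-high class (92 and 111 cells, led by Lyz1, Retnla and Fn1) and a class of other macrophages (652 and 537 cells in 4 clusters). Of 9 macrophage markers, 9 were at least 5 times higher than in T cells in both libraries in the Lyve1-high and the other macrophages, and 9 (female) and 8 (male) in the Aldh1a2-high macrophages. Ptprc, which encodes CD45, was detected in 77.6% (female) and 72.3% (male) of other macrophages, in 45.7% and 44.4% of Lyve1-high macrophages, and in 15.4% and 22.2% of a small endothelial-like class (39 and 45 cells). Class names rest on marker genes, were rebuilt here, and stand for "macrophage-like", "NK-like" and so on throughout. Of all cells, 93 female and 152 male cells lay in 2 clusters that were left unnamed.

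Among the named macrophage classes, Adrb1 and Maoa were highest in different ones, and Ddc had no clear highest class. Among the named classes, Adrb1 was highest in the other macrophages, at 88.5 CPM in the female library (interval 78.0 to 100.0, 257 UMIs) and 80.5 CPM in the male library (69.1 to 93.2, 178 UMIs); an unnamed cluster with macrophage markers and few UMIs per cell, described further on, stood higher. Maoa was highest in the Lyve1-high macrophages, at 45.4 CPM (21.8 to 83.6, 10 UMIs) and 69.9 CPM (45.7 to 102, 26 UMIs), and close to that in the endothelial cells. Ddc was low everywhere, and most of its UMIs came from NK and T cells: 38 of 44 in the female library and 17 of 19 in the male library. T cells stood above NK cells in the female library (6.10 against 4.94 CPM) and below them in the male library (2.78 against 6.69 CPM). The intervals of these 2 classes overlapped in each library. The 12.9 CPM of Ddc in female mast cells or basophils rested on 1 UMI.

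**Figure D1:**
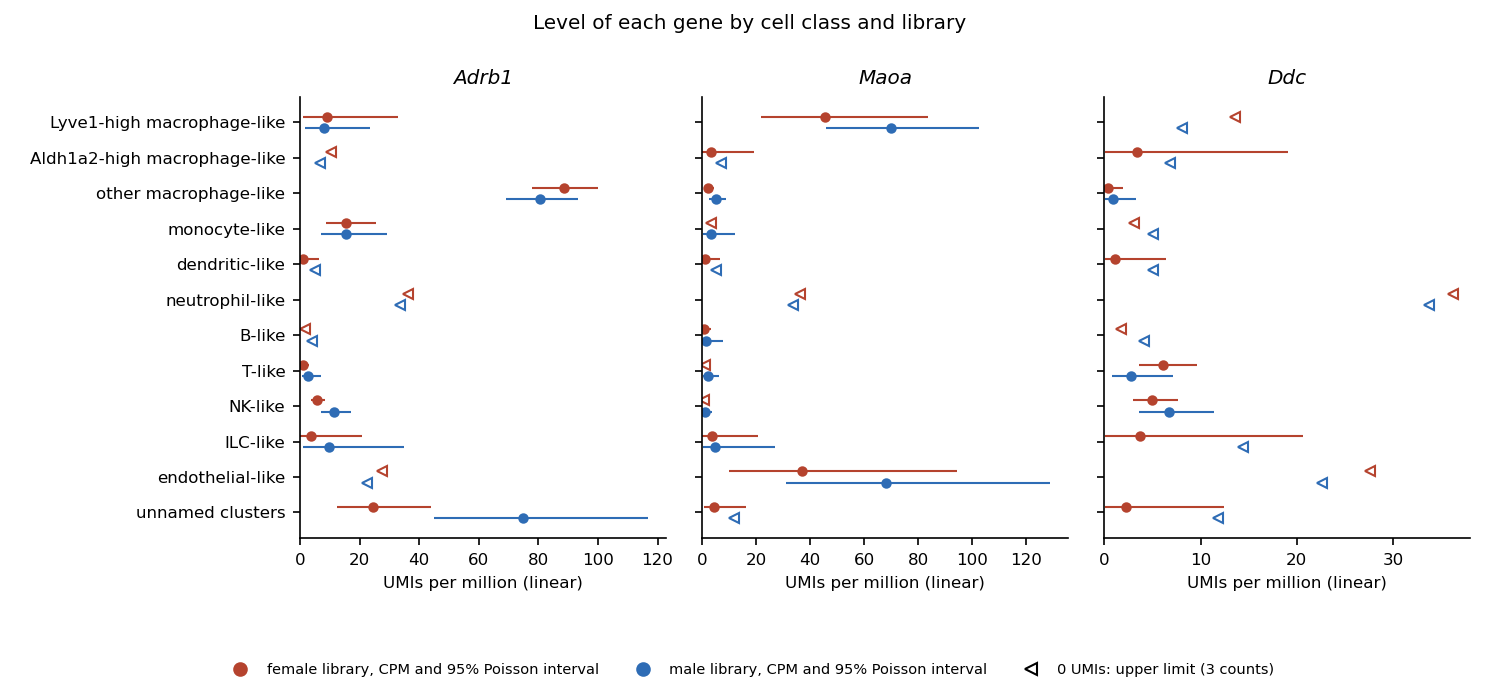
Level of Adrb1, Maoa and Ddc in each cell class (rows) in CPM on linear axes that differ between panels; points are the female and male libraries, bars are 95% Poisson intervals for counting error, and open triangles mark classes with 0 UMIs at the upper limit that 3 counts allow. Adrb1 stands out in the other macrophages (88.5 and 80.5 CPM) and, in the male library, in the unnamed clusters (24.7 female and 74.8 male CPM). Maoa stands out in the Lyve1-high macrophages (45.4 and 69.9 CPM) and endothelial cells, and Ddc stays below 10 CPM in every class drawn. The mast/basophil class, with 25 and 6 cells, is not drawn.

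The receptor Adrb1 was detected in 175 of 652 female other macrophages (26.8%, Clopper-Pearson interval 23.5 to 30.4%) and in 130 of 537 male ones (24.2%, 20.6 to 28.1%). These shares depend on how many UMIs a cell has: the median cell of the class held 3955.5 female and 3428 male UMIs, and cells with an Adrb1 UMI had a median of 5410 and 4924.5. When 1000 UMIs were drawn at random from each cell, with 14 female and 8 male shallower cells left out, an Adrb1 UMI remained in 7.84% of the female cells (50 of 638) and 8.13% of the male ones (43 of 529). In B cells, which served as the class for background, no Adrb1 UMI was found in 518 female cells, which allows a share of up to 0.579%, nor in 270 male cells, up to 1.11%; their median depth was 2216 and 1779.5 UMIs. Counted against 3 UMIs in B cells, the other macrophages had 52.4-fold (female) and 19.5-fold (male) more Adrb1. The shares of the 2 classes differed by more than counting error and depth.

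Adrb1 was spread over many macrophages and not confined to a few cells. The 5 other macrophages with the most UMIs held 8.56% of the Adrb1 UMIs of the class in the female and 12.9% in the male library, the highest single cell held 5 UMIs in each, and 56 female and 27 male cells held 2 or more.

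Within the other macrophages, the Adrb1 level of 2 of the 4 clusters was above that of the other 2 in both libraries, though not every pair was apart by more than counting error. The cluster led by Mmp12, Zmynd15 and Mmp13 had 111 CPM in the female (87.0 to 140, 71 UMIs in 92 cells) and 108 CPM in the male library (85.9 to 135, 80 UMIs in 116 cells). The cluster led by Ecm1, AA467197 and Gpx3, which also carries Tmem119 and Olfml3 among its leading genes, had 122 CPM (99.2 to 149) and 106 CPM (61.5 to 169). Lower values were seen in the cluster led by Ms4a7 and Slc40a1, at 66.5 CPM (47.0 to 91.2) and 73.9 CPM (50.6 to 104), and in the cluster led by Mmp12, Aif1 and Wfdc17, at 55.9 (41.5 to 73.8) and 55.7 CPM (41.2 to 73.7). Intervals of the Zmynd15 cluster and the Aif1 cluster did not overlap in either library, whereas those of the Zmynd15 and the Ms4a7 cluster overlapped in both and the male interval of the Ecm1 cluster overlapped those of both the Ms4a7 and the Aif1 cluster. Adrb1 was detected in 47.8% and 44.8% of the cells of the Zmynd15 cluster and in 13.9% and 13.2% of the Aif1 cluster, but the former cells were deeper, with a median of 6649.5 and 6156 against 2643 and 2210 UMIs. After the draw of 1000 UMIs the shares were 15.2% (8.58 to 24.2%) and 12.1% (6.76 to 19.4%) against 5.04% (2.71 to 8.46%) and 6.76% (4.12 to 10.4%), and the male intervals overlapped.

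**Figure D2:**
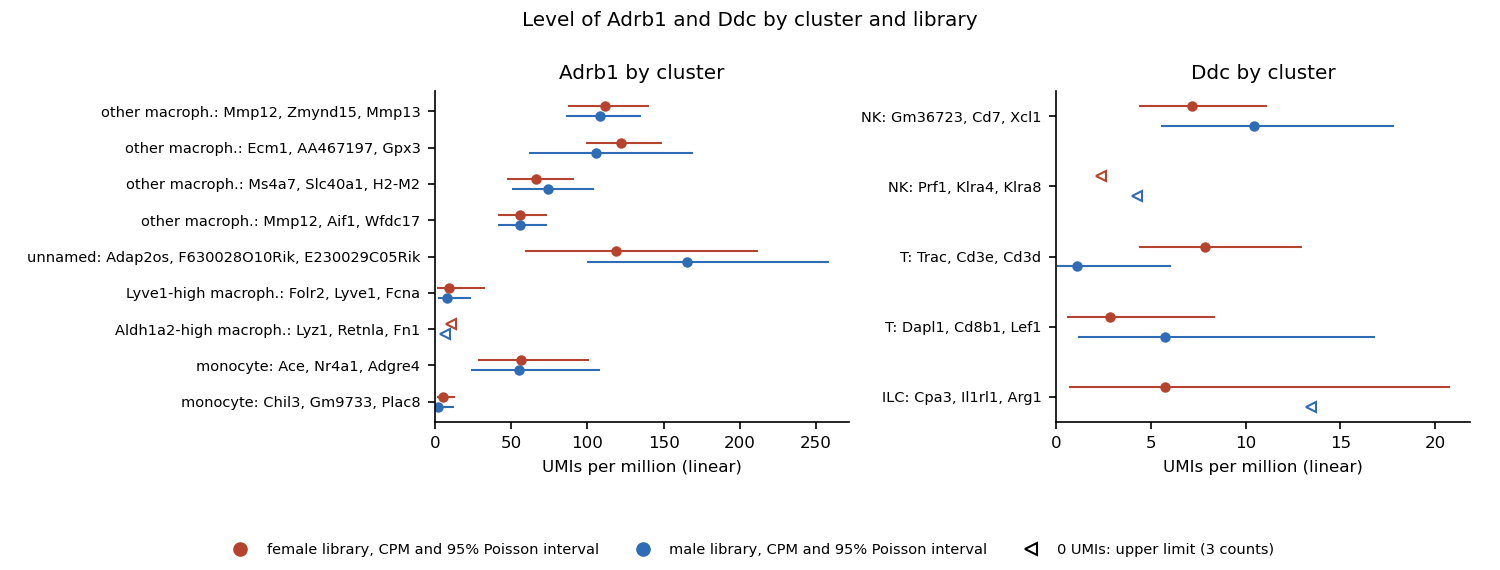
Adrb1 in the macrophage and monocyte clusters (left) and Ddc in the NK, T and ILC clusters (right), each row a cluster named by its class and 3 leading genes, in CPM on linear axes; points are libraries, bars 95% Poisson intervals and open triangles upper limits where no UMI was found. All 4 clusters of other macrophages lie above 50 CPM of Adrb1 in both libraries, as does the monocyte cluster led by Ace, and Ddc is at 0 in both libraries only in the NK cluster led by Prf1 among the clusters drawn.

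The other 2 macrophage classes had little or no receptor transcript. Lyve1-high macrophages held 2 Adrb1 UMIs in the female library (9.09 CPM, 1.10 to 32.8) and 3 in the male library (8.07 CPM, 1.66 to 23.6), each in a separate cell. The level was thus 9.73 times higher in the other macrophages than in the Lyve1-high macrophages in the female library (counting interval 2.67 to 80.8) and 9.97 times in the male library (3.36 to 48.8). The female ratio rests on 2 UMIs in the denominator: a per-cell gate on markers gave 3.82 (0.680 to 152), an interval that includes 1, and means over cells gave 18.7. The male ratio rests on 3 UMIs in the denominator, and it was 15.1 (4.11 to 125) without doublet removal. Aldh1a2-high macrophages held no Adrb1 UMI in 92 female and 111 male cells. Counted against 3 UMIs there, the other macrophages were 8.60-fold and 11.7-fold higher. Lyve1-high macrophages were shallower than the other macrophages, with a median of 1781 female and 1932 male UMIs; CPM divides by the class total, and after the draw of 1000 UMIs Adrb1 remained in 0 of 68 female and 2 of 127 male Lyve1-high cells. For reference, across all genes with at least 20 UMIs in the Lyve1-high and other macrophages, 1544 of 10046 (15.4%) differed 2-fold or more the same way in both libraries, 841 higher and 703 lower in the Lyve1-high cells. Adrb1 was among the latter and Maoa among the former.

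Splitting the other macrophages by MHC class II gave Adrb1 ratios that differed between the libraries and with the settings. A cell was called MHC class II low if Cd74, H2-Ab1, H2-Aa and H2-Eb1 together had 10 or fewer of its 1000 drawn UMIs; 171 female and 21 male cells were low, and 28 female and 6 male cells lay between 8 and 12. In the female library, low cells had 104 CPM (82.3 to 129, 80 UMIs) and high cells 83.4 CPM (71.5 to 96.6, 177 UMIs), a ratio of 1.24 (0.944 to 1.63). The male low cells held 3 Adrb1 UMIs, at 42.8 CPM (8.82 to 125), against 81.9 CPM in 508 high cells (70.2 to 95), a ratio of 0.522 (0.107 to 1.55). Both intervals include 1 and the libraries point in opposite directions. With a boundary of 20 UMIs the female ratio was 1.46 (1.13 to 1.88), without doublet removal it was 1.33 (1.01 to 1.73), and with the per-cell gate the male ratio was 0.234 (0.0479 to 0.696), so that the interval left out 1 under these 3 settings. Among 9708 genes tested in the same way, 4.7% differed 2-fold or more the same way in both libraries, and Adrb1 did not.

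Of the monocytes, those with genes of nonclassical, patrolling monocytes held most of the receptor transcript. Adrb1 in the whole class was 15.4 CPM in the female (8.64 to 25.5, 15 UMIs in 300 cells) and 15.3 CPM in the male library (7.01 to 29.1, 9 UMIs in 180 cells). The cluster led by Ace, Nr4a1 and Adgre4 had 56.3 CPM (28.1 to 101, 11 UMIs in 107 cells) and 54.8 CPM (23.7 to 108, 8 UMIs in 73 cells). The cluster led by Chil3 and Plac8, genes of classical monocytes, had 4 UMIs (5.15 CPM, 1.40 to 13.2) and 1 UMI (2.27 CPM, 0.0574 to 12.6). The Ace cluster was therefore 10.9 times higher (3.24 to 47.1) in the female library, and the ratio in the male library was 24.2 with a counting interval of 3.25 to 1074. The male ratio rests on 1 UMI in the Chil3 cluster, which stood at 5.85 CPM (1.21 to 17.1) without doublet removal, against 53.6 CPM (23.2 to 106) in the Ace cluster. This pair of clusters was picked after its values were seen. In all, 10.0% of 6709 genes differed 2-fold or more between these clusters the same way in both libraries, Adrb1 among them. The macrophage marker list summed to 2155 and 2283 CPM in the Ace cluster, 1891 and 1898 CPM in the Chil3 cluster, and 18105 and 18767 CPM in the other macrophages. The part of macrophage RNA in the Adrb1 counts of these monocytes was not tested. Adrb1 in the other macrophages was 1.57 times that of the Ace cluster in the female (0.863 to 3.19) and 1.47 times in the male library (0.729 to 3.45), and these neighbours in the order of levels could not be separated at this depth.

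In NK cells, whose intervals overlapped those of the Lyve1-high macrophages, Adrb1 stood at 5.68 CPM in the female (3.6 to 8.52, 23 UMIs in 20 of 861 cells) and 11.3 CPM in the male library (7.09 to 17.1, 22 UMIs in 18 of 369 cells). The other macrophages were 15.6 times (10.2 to 25.0) and 7.11 times (4.55 to 11.6) higher. The female to male ratio in NK cells was 0.502 (0.267 to 0.945). Most of it lay in the NK cluster led by Prf1 and Klra4, with 7 female UMIs (5.52 CPM, 2.22 to 11.4) and 15 male UMIs (21.5 CPM, 12.0 to 35.4), while the cluster led by Cd7 and Xcl1 had 5.76 and 5.62 CPM. Of the 38 NK cells with an Adrb1 UMI, 47.4% also had a UMI of a macrophage marker, against 35.4% of the 1192 without, and their median depth was 5095.5 against 4378 UMIs; the part of free or doublet RNA in these cells was not tested.

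In the remaining classes Adrb1 was rare. T cells held 3 female (1.02 CPM) and 4 male UMIs (2.78 CPM), ILCs 1 and 2, mast cells or basophils 1 and 0 in 25 and 6 cells, and dendritic cells 1 and 0. No Adrb1 UMI was found in neutrophils (47 and 50 cells, upper limit 36.2 and 33.7 CPM) or endothelial cells (39 and 45 cells, upper limit 27.6 and 22.6 CPM), classes too small to show a level like that of monocytes. An unnamed cluster of few UMIs per cell, with macrophage markers but led by Adap2os and F630028O10Rik, had 119 CPM (59.2 to 212, 11 UMIs in 67 cells) and 166 CPM (99.7 to 259, 19 UMIs in 141 cells).

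Between the libraries, the receptor level of the other macrophages had a female to male ratio of 1.10 (0.904 to 1.34). At a mitochondrial ceiling of 1.2%, which left 27 female and 43 male cells of this class, the ratio was 0.304 (0.0758 to 0.900). Each of their 4 clusters had a ratio between 0.899 and 1.16, with an interval that included 1. Of 9725 genes tested in this class, 4.46% differed 2-fold or more between the libraries, and Adrb1 did not. Summed over all 3 macrophage classes, the ratio was 1.26 (1.04 to 1.54), while Lyve1-high and Aldh1a2-high cells together numbered 173 out of 825 macrophages (female) and 262 out of 799 (male).

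**Figure D3:**
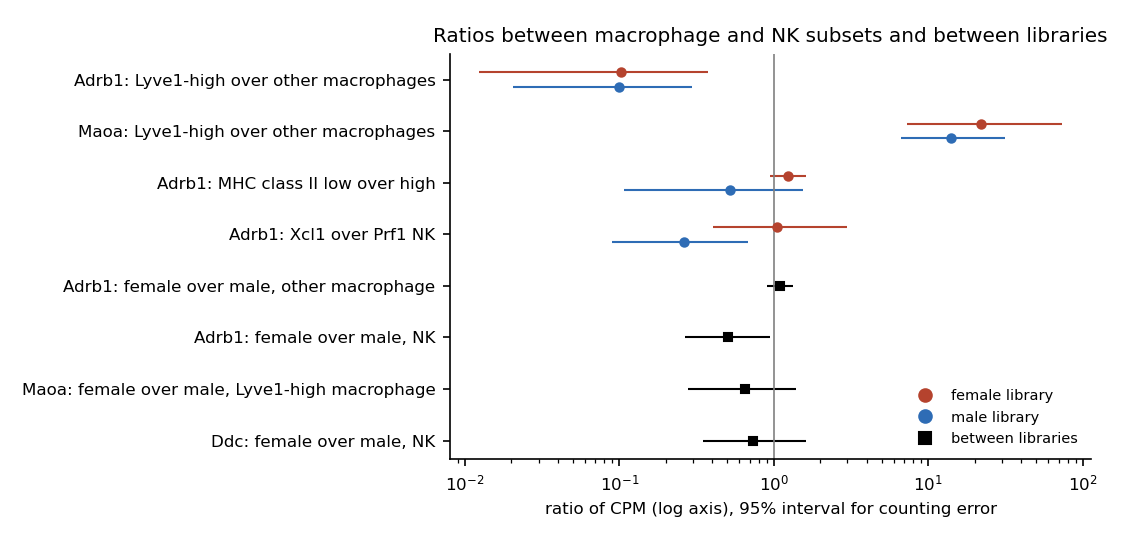
Ratios of CPM on a log axis, with 95% exact intervals for counting error and a line at 1; round points compare 2 subsets within a library and squares compare the female with the male library. Adrb1 and Maoa lie on opposite sides of 1 between Lyve1-high and other macrophages in both libraries, whereas the intervals of the MHC class II split include 1, as do 3 of the 4 ratios between libraries.

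The degrading enzyme Maoa had few UMIs in all, 26 in the female and 55 in the male library, of which Lyve1-high macrophages held 10 and 26, endothelial cells 4 and 9 and other macrophages 6 and 11. In Lyve1-high macrophages it was detected in 8 of 81 female cells (9.88%, 4.36 to 18.5%) and in 24 of 151 male cells (15.9%, 10.5 to 22.7%). The share after the draw of 1000 UMIs was 8.82% (6 of 68 cells) and 8.66% (11 of 127 cells). B cells, the background class, had 1 Maoa UMI in each library, in 0.193% of female and 0.370% of male cells. Lyve1-high cells with a Maoa UMI were not deeper than those without, at a median of 1839.5 against 1973.5 UMIs, and no cell held more than 2.

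The other macrophages had 6 Maoa UMIs in the female (2.07 CPM, 0.758 to 4.49) and 11 in the male library (4.97 CPM, 2.48 to 8.90), each in a separate cell. The Lyve1-high macrophages were 22 times higher (7.24 to 73.7) in the female and 14.1 times higher (6.71 to 31.5) in the male library. At a mitochondrial ceiling of 5% the female ratio was 10.4 (1.68 to 48.6), with Maoa at 25.0 CPM (5.15 to 73.0) in female Lyve1-high cells, while means over cells put that level at 75.8 CPM. In female other macrophages Maoa stood at 3.41 CPM (1.76 to 5.96) with a per-cell gate on markers and at 3.48 CPM from means over cells. In 6 of the 17 other macrophages with a Maoa UMI, a UMI of a Lyve1-high marker was present (35.3%), against 56.8% of the cells without Maoa. By cluster, 4 of the 11 male UMIs lay in the 48 cells of the Ecm1 cluster (24.9 CPM, 6.77 to 63.6), where the 172 female cells held 1. Aldh1a2-high macrophages held 1 female and 0 male Maoa UMIs, so both the receptor and the oxidase were at or near 0 in them.

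Endothelial cells had 4 female (36.8 CPM, 10.0 to 94.2) and 9 male Maoa UMIs (67.9 CPM, 31.1 to 129). The Lyve1-high to endothelial ratio was 1.23 (0.356 to 5.39) and 1.03 (0.467 to 2.50), so these 2 classes could not be ordered. At the ceiling of 5% Maoa in endothelial cells was 13.2 CPM (0.333 to 73.4) and 42.5 CPM (11.6 to 109). Of the 11 endothelial cells with Maoa, all 11 had endothelial markers, on average 6.45 of 7, and 7 had a macrophage marker UMI (63.6%, against 65.8% of the 73 endothelial cells without Maoa). A UMI of a Lyve1-high marker was present in 6 of the 7 male endothelial cells with Maoa (85.7%, against 47.4% without) and in 0 of the 4 female ones (against 48.6%); the part of RNA from Lyve1-high cells was not tested. Conversely, 15.6% of the 32 Lyve1-high cells with Maoa had an endothelial marker UMI, against 9.50% of the 200 without, and the summed endothelial list was at 49.98 and 48.4 CPM in the Lyve1-high class against 10247.5 and 9639.6 CPM in the endothelial class. RNA of adrenal cortex cells, which was found in every class, differed between them as well: 8 steroidogenic markers summed to 404 and 385 CPM in Lyve1-high macrophages, 228 and 207 CPM in other macrophages and 2723 and 604 CPM in endothelial cells. Its part in the Maoa values was not tested.

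No Maoa UMI was found in 1556 female T and NK cells (upper limit 0.428 CPM), and 5 were found in 743 male ones (1.48 CPM, 0.480 to 3.45). Monocytes held 0 and 2, dendritic cells 1 and 0, ILCs 1 and 1, and neutrophils and mast cells or basophils none. The intervals of these classes overlapped with their neighbours in the order of levels, except that the male ILCs (0.122 to 26.9 CPM) lay below the male endothelial cells. The female to male ratio of Maoa was 0.650 (0.280 to 1.39) in Lyve1-high macrophages, 0.542 (0.122 to 1.94) in endothelial cells and 0.415 (0.126 to 1.22) in other macrophages, each with an interval that includes 1. At a mitochondrial ceiling of 5% the ratio in Lyve1-high macrophages was 0.428 (0.0767 to 1.62). Over all macrophages the female to male ratio was 0.406 (0.214 to 0.740), while the Lyve1-high class held 2.19% (female) and 6.16% (male) of each library. Of 4377 genes tested in the Lyve1-high class, 8.41% differed 2-fold or more between libraries, and Maoa did not. Maoa lies on the X chromosome.

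Cells with an Adrb1 UMI and cells with a Maoa UMI were mostly found in different macrophage classes. Among 1624 AGMs, 310 had an Adrb1 UMI, 50 had a Maoa UMI and 5 had both (2 female and 3 male), all 5 in the other macrophages. Maoa was found in 1.61% of AGMs with Adrb1 (5 of 310, 0.526 to 3.72%) and in 3.42% of those without (45 of 1314, 2.51 to 4.56%). Inside the other macrophages the shares were alike, 1.64% of 305 cells with Adrb1 (0.534 to 3.78%) and 1.36% of 884 without (0.703 to 2.36%). In the Lyve1-high class none of the 5 cells with Adrb1 and 32 of the 227 without had a Maoa UMI (14.1%, 9.85 to 19.3%); 5 cells are too few for a comparison. A cell that expresses both genes at such low levels would often yield a UMI of neither, so the counts bound detection and not expression. After the draw of 1000 UMIs, 95 AGMs had Adrb1, 20 had Maoa and 1 had both.

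**Figure D4:**
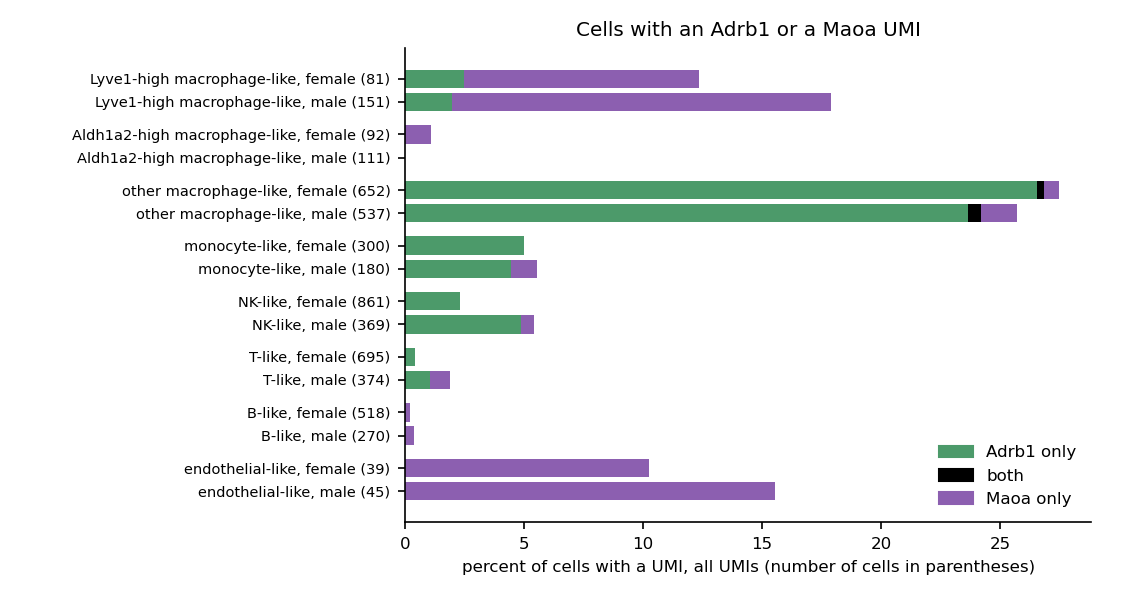
Percent of cells with an Adrb1 UMI only (green), a Maoa UMI only (purple) or both (black), for 8 cell classes in each library, from all UMIs and on a linear axis from 0; numbers of cells are in parentheses. Green fills the bars of the other macrophages, purple those of the Lyve1-high macrophages and endothelial cells, and black, the 5 cells with both, appears only in the other macrophages.

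The decarboxylase Ddc was detected in 40 female and 14 male cells. NK cells held 20 UMIs in the female (4.94 CPM, 3.02 to 7.63, in 18 of 861 cells) and 13 in the male library (6.69 CPM, 3.56 to 11.4, in 8 of 369 cells). All 33 lay in the NK cluster led by Cd7, Xcl1, Cd160 and Itga1, genes found in tissue-resident NK cells and type 1 ILCs: 7.19 CPM in 521 female cells (4.39 to 11.1) and 10.4 CPM in 209 male cells (5.56 to 17.8). The cluster led by Prf1, Klra4 and Eomes, genes of circulating NK cells, held none in 340 female and 160 male cells, which allows up to 2.36 and 4.29 CPM. Counted against 3 UMIs in the second cluster, the first was 3.04-fold and 2.43-fold higher, without the counting error of its own UMIs. When NK cells were instead split by their own marker UMIs, the male Xcl1 cells stood at 2.37 CPM (0.0600 to 13.2) against 0 with an upper limit of 12.3 CPM in the Prf1 cells, so the male groups were no longer apart. These clusters, too, were singled out after their values were seen. Of 9795 genes tested between them, 5.89% differed 2-fold or more the same way in both libraries, Ddc among them. In the male library 1 cell held 4 of the 13 UMIs and the top 5 cells held 76.9%; in the female library the top 5 held 35.0% and no cell more than 2. NK cells with Ddc had a T cell marker UMI more often than those without, in 66.7% against 45.1% of female and 75% against 47.4% of male cells, and were deeper, with a median of 6168.5 against 4362 UMIs; the part of doublets was not tested.

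T cells held 18 female (6.10 CPM, 3.61 to 9.63, in 16 cells) and 4 male Ddc UMIs (2.78 CPM, 0.757 to 7.11, in 4 cells). In the female library 15 lay in the cluster with Trac, Tcrg-C2 and Cxcr6 among its leading genes (7.87 CPM, 4.40 to 13) and 3 in the cluster led by Dapl1 and Cd8b1 (2.87 CPM), a ratio of 2.74 (0.776 to 14.8); the male clusters held 1 and 3. The 16 female T cells with Ddc carried on average 2.63 of 10 NK markers against 1.26 in the 679 without, and 5.31 against 5.20 of 10 T cell markers. The 4 male ones carried 0.250 NK markers, so this feature was not shared between libraries.

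Outside T and NK cells, Ddc had at most 2 UMIs in any class of a library. All 3 macrophage classes together held 2 in 825 female cells and 2 in 799 male cells (0.585 and 0.662 CPM), and B cells, monocytes, neutrophils, endothelial cells and Lyve1-high macrophages held none. NK cells were 14.4 times (2.30 to 595) and 7.39 times (1.67 to 67.5) above the other macrophages. Detection was close to the limit: after the draw of 1000 UMIs, 1 of 854 female and 2 of 366 male NK cells kept a Ddc UMI, so only the sums bear a comparison. Markers of chromaffin cells, which make Ddc in this gland, summed over 10 genes to 0.719 and 4.82 CPM in the Xcl1 cluster and to 31.7 and 21.3 CPM in the other macrophages, where Ddc was at 0.344 and 0.904 CPM; the part of chromaffin RNA in the Ddc counts was not tested. The female to male ratio in NK cells was 0.739 (0.350 to 1.62), and 1.21 from means over cells. No cell had both a Maoa and a Ddc UMI, and 2 had both Adrb1 and Ddc.

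Other genes of the pathway were read from fixed lists. Of 13 adrenergic and dopamine receptors reported here, Adrb1 was the only one to reach 10 CPM in a named class in both libraries. Of the 13, 11 had fewer than 10 UMIs in all cells and 7, including Adra1d, Adra2b and Drd1, had none. Among the 20199 genes detected 53.0% reached that level, a base that leaves out genes without a UMI, such as these 7. None of the 4 synthetic enzymes reached that level in a class in both libraries, against the same 53.0% of genes. Over all cells Th had 8 female UMIs (0.533 CPM) and 1 male UMI, Dbh 5 and 5, and Pnmt 22 and 6. In T and NK cells, which held most of the Ddc, Th had 1 female and 0 male UMIs and Dbh 2 and 0. The 4 genes for the cofactor tetrahydrobiopterin (Gch1, Pts, Spr and Qdpr) all reached 10 CPM in both libraries in each of the 3 macrophage classes and in monocytes, dendritic cells and NK cells, a level reached by 31.1% to 36.5% of all genes detected in these 6 classes. Gch1, its first enzyme, was highest in mast cells or basophils, at 232 CPM (138 to 367) in 25 female cells and 377 CPM (138 to 820) in 6 male cells.

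Of 3 degradation and conjugation genes measured here, Maoa and Sult1a1 reached 10 CPM in some named class in both libraries, as did 53.0% of the 20199 genes detected. Sult1a1, a sulfotransferase that acts on phenols and catecholamines, was highest in Lyve1-high macrophages (68.2 CPM, 38.1 to 112, and 118 CPM, 86 to 159) and endothelial cells (73.6 and 106 CPM), the same 2 classes as Maoa. In the other macrophages, where Adrb1 was highest, it stood at 61.6 CPM (52.9 to 71.3) and 38.0 CPM (30.3 to 47.0). Its Lyve1-high to other macrophage ratio was 1.11 (0.606 to 1.87) in the female and 3.12 (2.11 to 4.54) in the male library. Maob, the second monoamine oxidase, did not reach 10 CPM in a class in both libraries. Of 8 transporters for uptake and storage, 5 had fewer than 10 UMIs; the vesicular monoamine transporter Slc18a2 alone reached 10 CPM in both libraries, in mast cells or basophils, at 477 CPM (336 to 658, 15 of 25 cells) and 628 CPM (301 to 1155, 6 of 6 cells). Slc6a2, the norepinephrine transporter, stood at 0.344 and 1.36 CPM in the other macrophages, its highest class.

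Most genes that couple the receptor to cyclic AMP reached 10 CPM in several classes. Of 16, 15 did so in some named class in both libraries, as did 53.0% of the 20199 genes detected, with 11 in the other macrophages, 12 in the Lyve1-high macrophages, 10 in monocytes, 10 in NK cells and 12 in T cells; of all genes detected, between 33.5% and 36.5% reached it in each of these 5 classes. The adenylate cyclases Adcy4 (27.6 and 37.7 CPM) and Adcy6 (46.0 and 30.2 CPM) reached it in both libraries in endothelial cells alone, and the phosphodiesterase Pde4d in T cells and in mast cells or basophils. Gnas ratios between Lyve1-high and other macrophages were 1.11 (0.888 to 1.38) and 0.907 (0.747 to 1.09). Arrb2, a beta-arrestin that binds activated receptors, was highest in the other macrophages (263 and 265 CPM) with Lyve1-high to other ratios of 0.742 (0.533 to 1.01) and 0.608 (0.458 to 0.794). Adcy7 was the adenylate cyclase with the highest level in NK cells (133 and 148 CPM). Adcy9 was low but higher in Lyve1-high macrophages, 8.80 times (2.58 to 27.7) and 5.95 times (1.78 to 19.9) the other macrophages.

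**Figure D5:**
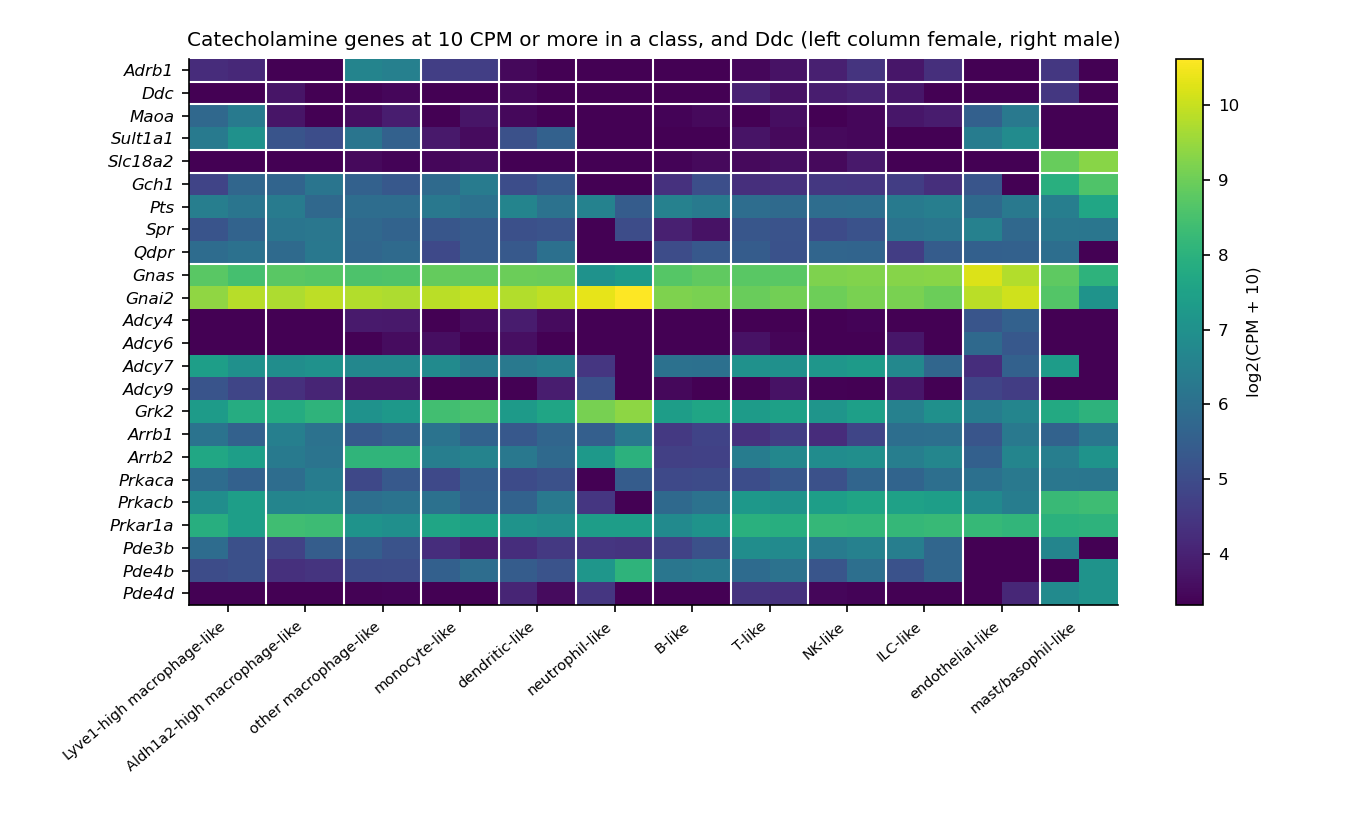
Level of catecholamine genes as log2(CPM + 10) (colour) for the genes at 10 CPM or more in at least 1 named class in both libraries, and for Ddc; each class has a female column (left) and a male column (right). Adrb1, Maoa and Slc18a2 are highest in different classes, Sult1a1 is high in the Lyve1-high and endothelial columns and in the female column of the other macrophages, while Gnas and Gnai2 are high in nearly all; the mast/basophil columns rest on 25 and 6 cells.

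The genes whose pattern over classes was most like each member were named by Pearson's r of log2(CPM + 10) over 22 points, 11 classes in 2 libraries, among genes with at least 200 UMIs; points of a library share its depth and free RNA, and r is given as a description. For Adrb1 they were Tgfbr1 (r = 0.879), Kcnj10 (0.868), G530011O06Rik (0.856), Ntpcr (0.853) and Olfml3 (0.841), all highest in the other macrophages; Tgfbr1 stood at 646 and 676 CPM there. For Maoa they were Ednrb (0.973), Gas6 (0.934), Lyve1 (0.932), Itsn1 (0.909) and Igfbp4 (0.908), all highest in Lyve1-high macrophages; Lyve1 is itself a marker that named the class. For Ddc they were Ccl5 (0.875), Gm20069 (0.874), Cst7 (0.867), 4930486L24Rik (0.867) and Xcl1 (0.858), highest in NK cells apart from Gm20069, which was highest in T cells. Xcl1 is itself a marker that named the NK class, and it leads the cluster that held the Ddc UMIs of NK cells. With a pseudocount of 1, 2 of 5 genes for Adrb1, 3 of 5 for Maoa and 2 of 5 for Ddc were chosen again.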

How the data were processed

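The authors sorted live CD45+ cells, made 3' libraries with Chromium v3.1 chemistry and, per the submitters' processing notes and protocol, counted reads with Cell Ranger 4.0.0 on mm10 and removed empty barcodes with DropletUtils 1.4.3. The deposited values are raw UMI counts per gene and barcode, with 9512670 male and 16218309 female counts in all. Whether the counting used strand is not given in the sources used here.

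Barcodes with at least 200 genes and at most 15% mitochondrial counts were kept; a ceiling of 1.2%, as printed in the study's methods, would keep 327 female (8.25%) and 359 male (13.4%) barcodes, far fewer than the cells the study states, so it cannot be the study's filter as applied here; it is an alternative. Scrublet's threshold marked 12 barcodes, so the highest scores were removed at 0.8% per 1000 barcodes. Cells were integrated and clustered in Seurat 5.3.0 after sctransform (20 components, resolution 1), with sex-linked and catecholamine genes held out. A cluster took the class with the largest share of markers raised 2-fold in at least 20% of its cells, and was named if 3 or more markers were raised and 75% of its cells held one (95% where none led it); this scoring was set after the clusters were seen. CPM carry exact Poisson intervals, shares Clopper-Pearson intervals and ratios conditional binomial intervals, all at 95% and for counting error only. Counts of 0 are bounded by 3 counts. A fold counted against 3 UMIs takes the measured level of the other group and leaves out the counting error of that level. PCR duplicates are collapsed by UMI. Code was tested on simulated data.

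Members and lists were chosen with earlier results of these data known. The members are given in full, other pathway genes where they reach 10 CPM in a class in both libraries, and the 5 genes most like each member. Alternatives were other mitochondrial ceilings, no doublet removal, resolution 0.5, a per-cell gate on markers, means over cells, other draws, and MHC class II boundaries of 5 and 20. Some genes of the lists are not reported here.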

Additional observations from a re-analysis of the deposited data

Results flagged for a closer look

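For the 3 genes, in 4 cases the ratio between a pair of subsets lay above 1 in one library and below 1 in the other; with 1 library per sex none of these differences was tested. Adrb1 in MHC class II low over high macrophages was 1.24 in the female library (0.944 to 1.63) and 0.522 in the male library (0.107 to 1.55, with 3 UMIs in the low cells). Adrb1 in the Xcl1 cluster over the Prf1 cluster of NK cells was 1.04 in the female (0.406 to 3.00, 16 and 7 UMIs) and 0.262 in the male library (0.0903 to 0.682, 7 and 15 UMIs). Maoa in MHC class II low over high macrophages was 0.688 (0.0140 to 6.96, 1 and 4 UMIs) and 3.04 (0.0701 to 21.4, 1 and 10 UMIs). Ddc in the T cell cluster with Cxcr6 over the Dapl1 cluster was 2.74 (0.776 to 14.8, 15 and 3 UMIs) and 0.189 (0.00361 to 2.36, 1 and 3 UMIs). The interval of 1 of these ratios, Adrb1 in male NK cells, lies wholly to one side of 1.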

How the results depend on the processing

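Of 220 values recomputed under other settings, 25 moved by more than their counting interval and no ratio whose reported interval left out 1 changed direction. Most of the large shifts came with the mitochondrial ceiling of 1.2%, which keeps far fewer cells than the study states and left 27 female and 43 male other macrophages and 10 and 6 NK cells: Adrb1 in other macrophages was then 42.4 CPM (female) and 140 CPM (male), a female to male ratio of 0.304 (0.0758 to 0.900) that turned its direction, its MHC class II low to high ratio was 0.83 in the female library, and Ddc in NK cells was 0.0 CPM in both. No Lyve1-high or endothelial cluster formed at that ceiling, so those values could not be recomputed. A per-cell gate on markers gave 76.0 CPM of Adrb1 in female other macrophages and brought the female ratio of other over Lyve1-high macrophages to 3.82 (0.680 to 152). Shifts in the Maoa ratios, the MHC class II ratio and the Ddc ratio between libraries are given beside those values. Means over cells also put Ddc in male NK cells at 3.99 CPM and Adrb1 in female monocytes at 23.4 CPM. A ceiling of 5% put Adrb1 in female monocytes at 10.2 CPM. Shares of cells moved with the draw: Adrb1 in other macrophages was 4.14% and 4.28% at 500 UMIs. In settings chosen after seeing the data, splitting cells by their own marker UMIs left 0 Adrb1 UMIs in male Chil3 monocytes and 2.37 CPM of Ddc in male Xcl1 NK cells, which ended the male contrast with Prf1 cells, and monocytes formed 1 cluster at resolution 0.5 and at a ceiling of 5%, so the Ace and Chil3 cells could not be compared there. No paired analysis was possible because each sex has 1 library, which also leaves no replicate to leave out.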

Other observations

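The Aldh1a2-high macrophages, in which no Adrb1 UMI was found (upper limits 10.3 and 6.86 CPM), held another adrenergic receptor in the female library. Adra2a, the alpha-2A receptor that lowers cyclic AMP, had 9 UMIs in 8 of 92 female cells of this class (30.9 CPM, 14.1 to 58.6) and none in 111 male cells (upper limit 6.86 CPM). Counted against 3 UMIs, the female level was 4.50-fold higher, without the counting error of its 9 UMIs. Over all cells Adra2a had 10 female UMIs and 1 male UMI. With 1 library per sex this difference has no replicate check, and the gene was singled out after its values were seen.

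Pnmt, the enzyme that turns norepinephrine into epinephrine, had 9 of its 22 female UMIs in the macrophage cluster led by Ecm1 and AA467197 (11.2 CPM, 5.13 to 21.3, in 5.23% of 172 cells) and 1 UMI in the 48 male cells of that cluster. Another 5 female UMIs lay in 41 dendritic cells led by Xcr1, and none in the 36 male ones. The list of 10 chromaffin cell markers, which includes Pnmt, summed to 67.3 female and 49.7 male CPM in the Ecm1 cluster, against 8.74 to 29.6 CPM in the 3 remaining clusters of other macrophages; the part of free RNA in this was not tested.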
